A study of Homo sapiens with 7 samples.

Results

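The elements numbered 6001 to 12000 form a block of a reporter library tested in HepG2 cells, with a higher median RNA over DNA than the library as a whole. They were selected by their number. The range was proposed because RNA over DNA, the readout itself, changes along the numbering, so the activity values below are a description and no difference in activity between bands of numbers was tested. A copy is 1 numbered sequence in 1 orientation, forward or reverse. Of 11652 listed copies in the range, 11551 had at least 10 counts in each DNA library and were tested, out of 134435 tested copies in the whole series. The remaining 101 copies fell below that filter, and 148 of the 6000 numbers had no row in the tables used here. Both orientations were tested for 5741 sequences of the range, out of 66769 in all. The range is described as 3 bands of 2000 numbers each: a first band from 6001 to 8000 with 3838 tested copies, a middle band from 8001 to 10000 with 3853, and a last band from 10001 to 12000 with 3860.

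HepG2 is a human liver carcinoma cell line; gene expression was not measured here, so its liver markers were not checked. All libraries came from untreated cells of this line infected with the same pool of lentivirus, which had been made in 293FT cells, a human embryonic kidney derivative used for packaging. The data were 3 DNA and 3 RNA libraries taken 48 hours after infection, each from 8 wells, and 1 plasmid library that ties barcodes to elements. Each element was 170 nucleotides long and sat before a minimal promoter, and the labels give 138420 oligos and a separate amplification for each orientation. The study asked how transcription factor binding and its ChIP signal relate to regulatory activity. The labels do not say that the replicates came from separate cultures, so the p-values reflect only how far these libraries differed from each other, and that spread may be technical.

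In a massively parallel reporter assay, an element that acts as an enhancer or promoter raises transcription of a barcode in the same construct, and barcode RNA divided by barcode DNA corrects for how many copies integrated. An enhancer is classically defined by acting in either orientation, whereas a promoter favours one direction of transcription. Lentiviral delivery puts the construct into chromosomes, at sites that differ from cell to cell, so an element is read as an average over many insertions and barcodes.

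The tables name elements by number only, so the bases of the elements themselves are not printed. What the counts of a copy rest on is its set of barcodes, and 17 tested copies in the range rested on 1 barcode each. The 4 printed here were chosen after their values were seen: the 3 with the highest log2 RNA/DNA and the lowest. Each barcode is 15 bases, all in capitals because the whole barcode is counted, as the association table lists it.
Seq_11209_fwd: CCATCGTTTAACTTC
Seq_6998_rev: TACTAAAAGTAGTTC
Seq_10071_fwd: CCTATACACAAATGG
Seq_8509_rev: AGTAAGAAGCAAGCG
Their log2 RNA/DNA was 2.74 (SE 0.14), 2.61 (SE 0.22), 2.28 (SE 0.26) and -0.84 (SE 0.30) in that order. With a single barcode, an effect of the barcode or of its insertions and an effect of the element cannot be told apart. Most copies were far better covered, with a median of 80.0 barcodes per copy.

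DNA libraries held 34860651 to 44258011 counts and RNA libraries 108324310 to 114738370 over all elements. A copy in the range had a median of 262, 206 and 208 counts in DNA replicates 1 to 3, and of 915, 889 and 874 in the RNA replicates. In CPM, a copy's count scaled to the library total, 1 DNA count equalled 0.0226 to 0.0287 and 1 RNA count 0.00872 to 0.00923. Activity is given as log2 RNA/DNA from edgeR's quasi-likelihood fit over all tested copies, relative to the centre that the scaling sets and not to elements known to be silent. A call is a Benjamini-Hochberg adjusted p under 0.05 in that fit, and "2-fold" below means called and at least 2-fold higher in RNA. The median SE per copy was 0.11, so a difference of 1 between single copies is several times that SE. The SE reflects the spread between libraries, which all read the same barcodes of a copy. Variation between barcodes is not in it, and Seq_11209_fwd with 1 barcode had an SE of only 0.14. Differences between copies are therefore less certain than their SE.

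Activity was high in the range and differed in form between the bands. The first band split into a low and an active population, and the middle band held the most low copies together with the strongest ones. The last band was mostly active with few low copies. The median log2 RNA/DNA was 1.01 over the range, against -0.04 over all tested copies. It was 1.19 in the first band, 0.63 in the middle band and 1.12 in the last. The neighbouring numbers had lower medians, 0.38 from 1 to 6000 and 0.55 from 12001 to 20000.

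In the range 8327 copies, or 72.1%, were called higher in RNA, where the share over all copies of the series was 35.2%. A further 1137 copies, or 9.84%, were called lower, against 32.2% over all copies. Both background shares describe the contrast the range was picked on, and nothing is read from the gap. By band, the share called higher was 72.0%, 62.0% and 82.3%, and the share called lower was 12.2%, 13.8% and 3.60%. The split of calls rests on the scaling. Of the calls, 88.0% were higher with TMM factors, 72.0% with library totals alone (6980 higher, 2721 lower), and 97.5% with the centre moved to the most frequent activity (9566 higher, 246 lower). The median of all copies lay at -0.47 and 0.34 under those other settings. Statements of copies above or below 0 are therefore relative to the chosen centre, whereas the middle band had the smallest 2-fold share under every scaling tried.

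Active copies at 2-fold or more numbered 5812, which is 50.3% of the range and compares with 17.7% over all copies. The first band held 2192 of them (57.1%), the middle band 1469 (38.1%) and the last band 2151 (55.7%). Among the neighbouring numbers the share was 30.8% from 1 to 6000 and 30.7% from 12001 to 20000. With the centre at the most frequent activity, the first and last bands changed order, with 66.2%, 50.4% and 70.8% in the 3 bands. With library totals alone the shares were 37.8%, 22.3% and 33.2%.

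Each replicate gave the same order of the bands when pairs of libraries with the same number were read singly. On the log2 scale with 1 CPM added to each molecule, which lowers the ratio of rare copies, the share of copies at 1 or above in the first band was 48.0%, 50.1% and 49.6% (mean 49.2% ± 1.11, SD, n = 3). In the middle band it was 33.2%, 33.1% and 32.6% (33.0% ± 0.304, SD, n = 3), and in the last band 47.0%, 48.1% and 47.5% (47.5% ± 0.519, SD, n = 3). The middle band lay apart from both others in every replicate, while the replicates of the first and last bands overlapped. The share below 0 was 20.7% ± 0.322, 26.9% ± 0.819 and 9.95% ± 0.561 (SD, n = 3) in the first, middle and last bands, and these did not overlap.

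The shape of the distributions separates the bands more than their medians do. In bins of 0.25 log2 units, the first band had a sharp peak at 1.50 to 1.75 with 18.2% of its copies, a trough at 0.25 to 0.50 with 4.72%, and a low hump just below 0 with 6.28%. The middle band peaked just below 0 with 11.3%, fell to 7.11% at 0.50 to 0.75 and rose again to 9.32% at 1.00 to 1.25. The last band rose without a trough to 1 peak at 1.50 to 1.75 with 15.1%. The first and middle bands thus each had a low and an active group of copies, closer to each other in height in the middle band. Low is relative to the centre, and no copy was shown to be silent. The trough of the middle band was there in each replicate: the lower peak held 10.8%, 10.1% and 10.2% of copies, the trough 6.85%, 7.94% and 7.97%, and the upper peak 9.19%, 9.06% and 10.3%, with 0.1 CPM added.

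Spread followed the same form. The SD over copies was 0.86 in the first and middle bands and 0.70 in the last, against a median SD between replicates of 0.14 to 0.16. Low copies were scarce in the last band, where 9.48% had a log2 RNA/DNA below 0, compared with 20.7% in the first band and 27.4% in the middle band. Copies between 0 and 1 made up 22.2%, 34.5% and 34.8% of the bands in order. The first band therefore had the fewest intermediate copies. Its 5th and 95th percentiles were -0.64 and 1.96, those of the middle band -0.57 and 2.04, and those of the last band -0.20 and 1.99.

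The upper tail did not follow the medians. Copies called at least 4-fold higher made up 4.87% of the range (563 copies), where 2.18% of all copies passed that level. The middle band had the lowest median but the most of these copies, 215 (5.58%), compared with 162 (4.22%) in the first band and 186 (4.82%) in the last. At 8-fold or more there were 34 copies, or 0.294% of the range beside 0.179% of all copies, of which 3 lay in the first band, 18 in the middle band and 13 in the last. These shares moved with the processing: 125 copies of the range passed 4-fold with library totals alone, 249 with limma and 2322 with the centre at the most frequent activity. In the replicates the share at a log2 of 2 or above averaged 1.63% ± 0.228, 3.63% ± 0.840 and 2.56% ± 0.494 (SD, n = 3) in band order with 1 CPM added. With 0.1 CPM added it was 5.52% ± 0.770, 5.93% ± 1.12 and 5.85% ± 0.741, and the bands overlapped. The first band was dense in moderately active copies and had few at 8-fold. At the other end, 16, 6 and 2 copies, or 0.417%, 0.156% and 0.0518%, were called at least 2-fold lower in the bands in order, beside 0.488% of all copies.

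Along the numbering the first band was made of long blocks, while the other bands were mixed from one number to the next. The limits of the stretches named here were chosen after their values were seen. Numbers 6001 to 6200 had a median of 0.07 over 391 copies, with 18.7% at 2-fold. The next 100 numbers, 6201 to 6300, were the quietest of the range, with a median of -0.41, 82.7% of copies below 0 and 1 copy of 197 at 2-fold. They were followed by the longest active block.

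Numbers 6401 to 7600 held 2297 tested copies with a median of 1.44, and 77.1% of them were at 2-fold. All 12 windows of 100 numbers in this plateau were alike, with medians from 1.31 to 1.50 and 2-fold shares from 68.4% to 80.5%. Its 5th and 95th percentiles were 0.09 and 2.03, and 4.22% of its copies lay below 0. In the replicates the plateau had a median of 1.21, 1.25 and 1.22 (1.23 ± 0.020, SD, n = 3, with 1 CPM added). It was a block of similar strength, with an SD over copies of 0.58 against 0.82 in the range. At 4-fold or more were 5.66% of its copies, beside 4.87% of the range.

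The plateau began with a step and ended more gradually. In windows of 10 numbers, over the mean of both orientations, 19 windows in a row from 6151 to 6340 had medians below 0, from -0.56 to -0.26. The window 6331 to 6340 was at -0.56 and the next, 6341 to 6350, at 1.41. At the far end the windows from 7661 to 7720 had medians of 1.04, 0.89, 1.43, 0.77, 0.35 and -0.58 in order. Between 7121 and 7610 all 49 windows of 10 numbers had a median of at least 1, from 1.00 to 1.76. After the plateau, numbers 7701 to 8100 had a median of 0.01 over 763 copies, with 21.5% at 2-fold and 49.7% below 0. This stretch was mixed, and crossed the boundary between the first and middle bands: the window 7711 to 7720 had no copy at 2-fold, whereas 7781 to 7790 had 75% of them.

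From 8101 to 10100 the values were evenly mixed. The 3853 copies there had a median of 0.70, with window medians between 0.36 and 0.95 and 2-fold shares between 28.9% and 47.3%. Strong copies were scattered through it, with 6.02% at 4-fold, and the window 8701 to 8800 had 10.4%. Numbers 10201 to 12000 were higher and narrower, with a median of 1.14 over 3472 copies, window medians between 1.02 and 1.31 and 56.8% at 2-fold. Of the 20 windows of 100 numbers in each band, 13 had at least 50% of copies at 2-fold in the first band, 0 in the middle band and 18 in the last.

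Among the bands, neighbouring numbers resembled each other only in the first. The correlation of a sequence's mean activity with that of the next number was 0.50 in the first band, 0.03 in the middle band and -0.01 in the last, and within the plateau alone it was 0.05. At a distance of 10 numbers it was 0.48, -0.03 and 0.02. All these points share the same 6 libraries, and the values are a description. The likeness in the first band is thus one of blocks with distinct levels, with little order inside the plateau. In the first band a sequence at 2-fold in both orientations was followed by another such one in 63.5% of cases, and one that was not in 36.2%; the corresponding shares were 30.3% and 31.1% in the middle band and 46.1% and 48.6% in the last. Odd and even numbers had like medians, 1.24 and 1.20, 0.63 and 0.67, and 1.15 and 1.10 in the bands in order.

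The longest run of consecutive numbers at 2-fold in both orientations was 13 in the first band, where 2 runs had that length. One, from 6345 to 6357, came directly after the step and had sequence means of 1.28 to 2.07, and the other, from 6949 to 6961, lay inside the plateau with means of 1.36 to 2.22. In the middle band the longest run was 5 (9067 to 9071) and in the last band 7 (10375 to 10381). The longest runs with both orientations below 0 were 12 in the first band, from 6302 to 6313 with means of -0.88 to -0.17, then 5 (8034 to 8038) and 3 (10032 to 10034).

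The strongest copy of the range was Seq_9364_fwd of the middle band, at a log2 RNA/DNA of 4.05 (SE 0.12), a 16.6-fold ratio that ranked 15 of all tested copies. Its 91 barcodes gave 6.01, 6.38 and 9.38 CPM in DNA replicates 1 to 3, and 89.3, 85.3 and 92.3 CPM in the RNA replicates. RNA lay far above DNA in every replicate, and DNA replicate 3 was the highest of the DNA values. Its reverse copy reached 3.34 (SE 0.10), its DNA averaging 9.50 ± 1.73 CPM and its RNA 71.4 ± 3.30 CPM (SD, n = 3). The pair had the highest mean of both orientations in the range, 3.70.

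The second sequence of the middle band, Seq_9149, was as strong on average, at 3.69. Its reverse copy reached 3.88 (SE 0.13), with 11.1, 11.9 and 18.0 CPM in DNA and 156, 145 and 145 CPM in RNA. Its forward copy was at 3.51 (SE 0.11). Seq_9268_fwd, the third highest copy of this band, had a log2 RNA/DNA of 3.75 (SE 0.15) on 36 barcodes, with DNA at 3.48, 3.75 and 6.37 CPM and RNA at 45.1, 48.4 and 40.7 CPM. RNA and DNA did not overlap in any of these copies.

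In the last band Seq_10019 led in copies and in means, with 3.67 (SE 0.12) forward and 3.47 (SE 0.16) reverse. The forward copy had 12.6, 13.5 and 19.8 CPM in DNA and 145, 143 and 146 CPM in RNA, and it carried 144 barcodes. Seq_10886_rev followed at 3.66 (SE 0.10), with DNA at 5.72, 5.21 and 6.97 CPM and RNA at 57.2, 56.1 and 54.3 CPM. Both had nearly constant RNA across replicates, and the larger spread was in DNA. Seq_10086_rev was the best covered of the strong copies with 212 barcodes, and had 3.58 (SE 0.13) from 21.4, 23.6 and 34.7 CPM in DNA and 239, 235 and 232 CPM in RNA. Its forward copy stood at 3.31 (SE 0.10), for a mean of 3.45.

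The first band topped out lower. Seq_7860_fwd had 3.45 (SE 0.14) on 32 barcodes, with DNA at 1.83, 1.60 and 1.41 CPM and RNA at 13.7, 11.0 and 14.8 CPM. Its reverse copy had 3.25 (SE 0.13) on 48 barcodes, with DNA at 3.77, 6.06 and 6.11 CPM and RNA at 40.0, 32.8 and 38.4 CPM. This sequence, the strongest of its band, lay outside the plateau, in the mixed stretch after it. Seq_6546_rev, inside the plateau, had 3.28 (SE 0.10), with DNA at 10.8, 9.38 and 12.3 CPM and RNA at 83.0, 77.3 and 73.9 CPM. Its forward copy had 2.69 (SE 0.10), and that pair's mean was 2.99.

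Very strong copies had strong opposite copies. The 34 copies at 8-fold or more belonged to 22 sequences, and 12 of these reached 8-fold in both orientations. The opposite copy of an 8-fold copy had a median of 3.25, and the lowest was 2.60, itself above 4-fold. The median counts both copies of those 12 sequences, which are above 8-fold by selection. No like values were drawn up for the series. All 34 had at least 28 barcodes. DNA replicate 3 stood above both other DNA replicates in 29 of the 34 copies, and in 13 of 13 in the last band. Grouping copies by a log2 RNA/DNA that left out both DNA libraries of the ratio, and so by the remaining DNA library with all RNA, DNA replicate 3 exceeded DNA replicate 1 by a median log2 of 0.40 in the 44 copies at 3 or above, by 0.14 between 2 and 3 and by 0.05 between 1 and 2, and the ratio was -0.02 below 0. The like ratio of replicate 2 to replicate 1 was 0.03 in the top class. Without DNA replicate 3, the median log2 RNA/DNA of the 34 copies was 3.39 in place of 3.29, and 656 copies passed 4-fold in place of 563. What part the DNA of strong copies in that library has in these values was not tested.

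The lowest sequences had means of both orientations between -0.99 and -0.67. In the middle band Seq_9869 had a mean of -0.99, with -1.04 (SE 0.11) forward and -0.94 (SE 0.13) reverse. Its forward copy had DNA at 10.2, 11.4 and 11.3 CPM and RNA at 3.98, 3.75 and 4.16 CPM. RNA was below DNA in every replicate, and the groups did not overlap. Seq_9998, the next, had -0.64 (SE 0.26) and -1.21 (SE 0.20) on 21 and 33 barcodes. The call of its forward copy (adjusted p = 0.0276) was lost without any 1 of the replicates.

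In the first band the lowest means were those of Seq_7721, with a mean of -0.95 over both orientations and -0.90 (SE 0.13) forward, and of Seq_7844, with -0.77 (SE 0.18) and -1.08 (SE 0.17). Both lay in the mixed stretch after the plateau. The reverse copy of Seq_7721 had DNA at 8.04, 6.87 and 7.43 CPM and RNA at 3.09, 2.69 and 2.51 CPM. In the last band Seq_10624 had the lowest mean, -0.99, but its orientations were unequal, at -1.44 (SE 0.17) forward and -0.53 (SE 0.16) reverse. Seq_10752, on 205 and 228 barcodes, had -0.70 (SE 0.09) and -0.64 (SE 0.08). With the centre moved to the most frequent activity, the calls of the forward copies of Seq_7844 and Seq_9998 and of the reverse copy of Seq_10624 were lost. The low elements spanned a narrower range than the strong ones: the minimum over all members was -1.44 and the maximum 4.05.

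The forward and reverse copies of a sequence ranked much alike in activity. Their median absolute difference was 0.28, with 5th and 95th percentiles of forward minus reverse at -0.63 and 0.80. No difference was called in 3914 sequences (68.2%). Over 5741 sequences Pearson's r between the orientations was 0.860 (Spearman's rho 0.838), and it was 0.876, 0.867 and 0.808 in the first, middle and last bands, where the whole series had 0.854. These points share libraries. With forward and reverse taken from different replicates the values were 0.831, 0.838 and 0.767. Within 1 orientation, different replicates correlated at 0.921, 0.934 and 0.900 forward and at 0.949, 0.954 and 0.938 reverse, which bounds what the orientations could reach. As a ratio to that bound, the agreement was 0.889, 0.888 and 0.835. The last band had both the lowest agreement and the narrowest spread of activity. A narrower spread can lower a correlation by itself, and its part here was not tested.

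Counts of calls give the agreement at fixed thresholds. Of the range, 2454 sequences, or 42.7%, were at 2-fold in both orientations, where the share over the series was 13.6%. The bands had 960 (50.3%), 590 (30.8%) and 904 (47.2%). Of the sequences at 2-fold in at least 1 orientation, both were in 78.6%, 68.1% and 73.3%, and in 62.6% over the series. The 2454 were 83.4% of the sequences active as forward and 86.6% of those active as reverse, where the series had 74.0% and 80.3%. All these shares rise with the share of active copies, on which the range was picked. Their gaps between bands and to the series are therefore not read as closer agreement. A total of 488 sequences were at 2-fold only as forward and 380 only as reverse, out of 5741. The series had 3203 and 2233 out of 66769, which were smaller shares. At least 1 orientation was at 2-fold in 57.9% of the range and in 21.8% of the series.

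Opposite calls were rare. There were 56 sequences called higher as forward and lower as reverse, and 12 the other way round, out of 5741, while 2.21% and 0.271% of the sequences of the series had such calls. An opposite call needs a copy called lower. Such copies were scarcer in the range than in the series, and their number rests on the scaling, so these counts are not read as closer agreement. Both orientations had a log2 RNA/DNA below 0 in 787 sequences, 309 in the first band, 375 in the middle band and 103 in the last. At 4-fold, both orientations passed in 131 of the 426 sequences where either did, or 30.8%, where the series had 40.3%. The bands had 27 of 134 (20.1%), 65 of 150 (43.3%) and 39 of 142 (27.5%).

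The orientation difference itself was tested as the interaction of molecule and orientation in edgeR. It was not the value used to choose the range, but it comes from the same counts. Its median also fell as activity rose (below), so the comparison with the series is not independent of that choice. Forward and reverse copies carry different barcodes, and variation between barcodes is not in the SE or p-value of the difference. The forward copy was higher in 1136 sequences, or 19.8%, below the 24.8% of the whole series. The reverse copy was higher in 691 sequences, or 12.0%, above the 7.67% of the series. By band, forward calls made up 17.9%, 22.5% and 18.9%, and reverse calls 10.5%, 12.1% and 13.5%. The median forward minus reverse difference was 0.08 over the range, 0.08, 0.12 and 0.06 in the bands, and 0.18 over the series. The forward lean was thus smaller in the range than in the whole series. The neighbouring numbers below and above the range had medians of 0.14 and 0.13, also under that of the series. Their forward calls made up 22.4% and 24.5%, and their reverse calls 10.1% and 11.1%. The middle band lay close to these neighbours in its median, and the first and last bands lay lower. Measured from the median difference of the series in place of 0, 565 sequences of the range were called forward and 1201 reverse. Which direction had more calls therefore rests on that reference. Without replicate 1 the calls were 757 and 439, and without replicate 2 they were 760 and 442.

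In the replicates the median difference of the range, with 1 CPM added, lay below that of all other sequences by 0.11 in replicates 1 and 2 and by 0.12 in replicate 3 (SD 0.002, n = 3). All replicates went the same way, and an exact two-sided sign-flip test over the 3 replicates gave p = 0.25, the smallest p that this number of replicates allows, so the difference cannot pass 0.05 by that test. Between bands, the middle band exceeded the first in every replicate, by 0.05, 0.02 and 0.05, and the last by 0.06, 0.06 and 0.08. The exact p was again 0.25 for both.

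The forward lean was largest among sequences of low activity. Among the 1101 sequences with a mean below 0, the median difference was 0.22, and 220 were called higher as forward against 24 as reverse. Among the 1731 sequences with means of 0 to 1, it was 0.11, with 411 forward and 208 reverse calls. It was 0.01 in the 2700 sequences between 1 and 2, with 473 forward and 426 reverse calls, and 0.01 in the 209 sequences at 2 or above, with 32 and 33. The classes use the same counts as the calls, so this is a description, and the composition of the range moves with the smaller lean. Its part in the difference from the series was not tested.

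Large orientation differences were uncommon. A called difference of at least 2-fold in favour of forward was found in 120 sequences (2.09%, against 2.24% over the series) and in favour of reverse in 54 (0.941%, against 0.663%). The bands held 42, 40 and 38 of the forward and 20, 15 and 19 of the reverse kind. An element at 2-fold in one orientation, not called higher in the other and called different between them was found 56 times for forward, 13, 15 and 28 in the bands, and 27 times for reverse, 8, 8 and 11 in the bands. The series had shares of 0.710% and 0.297% for these.

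The largest forward excess was that of Seq_10043 in the last band, with 2.22 forward and 0.26 reverse. The difference was 1.97 (SE 0.22, adjusted p = 4.19e-09), and with 1 CPM added it was 1.90, 1.28 and 1.47 in the 3 replicates. Next in that band came Seq_10611, with 2.54 forward and 0.87 reverse (difference 1.67, SE 0.15, adjusted p = 1.43e-11). Both orientations of Seq_10611 were called higher in RNA, and they differed in strength. In the first band Seq_7035 had 1.56 forward and -0.17 reverse, a difference of 1.73 (SE 0.16, adjusted p = 1.22e-11). Its forward copy had DNA at 5.33, 5.98 and 4.85 CPM and RNA at 11.6, 10.8 and 13.0 CPM. Its reverse copy had DNA at 7.05, 6.78 and 7.14 CPM and RNA at 4.86, 4.58 and 4.38 CPM. RNA thus lay above DNA in one orientation and below it in the other in every replicate, before scaling. In the scaled edgeR fit the reverse copy was not called lower (adjusted p = 0.193). Seq_7055, with 1.97 and 0.29, also lay in the plateau, and its difference was 1.67 (SE 0.17).

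In the middle band Seq_9512 had 1.74 forward and 0.07 reverse, a difference of 1.67 (SE 0.16, adjusted p = 7.64e-11). For Seq_9587 it was 1.63 (SE 0.29, adjusted p = 3.09e-05) on 22 forward barcodes. That value fell to 0.93 with 1 CPM added to each molecule, since its forward copy had 1.08, 0.973 and 0.488 CPM in DNA. Depth limits what can be said of the size of this difference.

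Reverse excesses reached a similar size. The largest was Seq_10789 in the last band, with 0.22 forward and 1.90 reverse, a difference of -1.68 (SE 0.21, adjusted p = 4.71e-08). Seq_11422, well covered with 136 barcodes in each orientation, had 0.19 and 1.68, a difference of -1.50 (SE 0.12, adjusted p = 6.05e-13). In its replicates the difference was -1.68, -1.27 and -1.32. Among the middle band's sequences Seq_9232 had 0.22 forward and 1.79 reverse (difference -1.57, SE 0.13, adjusted p = 2.18e-12), and Seq_8833 had 0.16 and 1.64 (difference -1.48, SE 0.13). In these 4 sequences the forward copy was close to 0 and the reverse copy moderately active.

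The first band had Seq_7652, with 0.13 forward and 1.57 reverse (difference -1.44, SE 0.16), and Seq_6714, with 1.43 forward and 2.88 reverse (difference -1.46, SE 0.17, adjusted p = 1.67e-08). Seq_6714 was active both ways. Its reverse copy had 8.13, 7.18 and 9.90 CPM in DNA and 45.7, 46.0 and 46.0 CPM in RNA. Its forward copy had 3.50, 2.26 and 2.15 CPM in DNA and 4.95, 5.26 and 5.83 CPM in RNA, so its forward ratio was lowest in replicate 1.

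Measures that come from DNA and plasmid alone were not used to pick the range. Copies had a median of 72.0, 86.0 and 82.0 barcodes in the first, middle and last bands, and 86.0 over the series. Median DNA abundance was 5.26, 6.47 and 6.26 CPM, and 6.62 CPM over the series. The first band was thus the least covered of the 3 bands on both measures. Its quiet windows were thinner still, with a median of 48.0 barcodes at 6201 to 6300 and 57.0 at 6001 to 6200, against 79.0 in the plateau. In the last band, 10101 to 10200 had 56.0. Over single copies, however, activity and barcode number were nearly unrelated, with a Spearman's rho of 0.0145 over 11551 copies, and of 0.0715, 0.0697 and -0.0708 in the bands. The part of coverage in the difference between blocks was not tested.

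Barcode composition did not differ: the median GC share of a copy's barcodes was 39.0% in every band and over the series. Fewer than 20 barcodes were found for 148, 93 and 133 copies of the bands, or 3.24% of the range. Below the DNA filter fell 26, 33 and 42 copies. Reverse copies had a median of 84.0 barcodes and forward copies 76.0.

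The tested copies with 1 barcode had values from -0.84 to 2.74. Of the 17 that were tested, 9 were at 2-fold. The opposite orientation was tested for 3 of them, was below the filter for 1 and had no row for 13. In those 3 pairs the absolute difference between orientations had a median of 0.17 and a maximum of 0.97, beside a median of 0.28 over 5532 sequences with at least 20 barcodes each way. All counts were even numbers in all 56 listed copies of the range with 1 barcode.

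At the limits of the range, Seq_6000, just outside, had 1.31 forward and 2.33 reverse, and Seq_6001, just inside, 0.41 and 0.17. Seq_12000, the last member, had 0.99 and 0.81, and Seq_12001 had 0.68 and 0.41. On the DNA filter, 12 copies passed with a lowest DNA count of 10, at a median log2 RNA/DNA of 0.63, and 6 copies failed with a lowest count of 9.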

How the data were processed

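Whole-number counts per copy were read from the deposited table of each DNA and RNA library, as the authors left them. The authors' deposited pooled table gives CPM per molecule, a ratio of RNA to DNA and its log2, per the file headers; these columns served only to check the join. BWA 0.7.17 and hg38 are named, with no role given, in the submitters' processing notes. Aligner settings, barcode filters and whether reads or molecular identifiers were counted are not given in the sources used here, so errors from counts and floors (3 counts) cover counting error only.

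A minimum of 10 counts in every DNA library was required, and RNA was tested against DNA with edgeR 4.0.16 (R 4.3.3, quasi-likelihood, robust), using library totals, TMM factors and Benjamini-Hochberg adjustment over all 134435 copies. The orientation difference was the interaction of molecule and orientation over 66769 sequences. Each SE was taken as the log2 value divided by the root of its F statistic. For replicate values, 1 CPM was added to the TMM-scaled RNA and DNA of libraries with the same number, and the log2 of their quotient was taken. The CPM printed use library totals without TMM factors, which makes their quotient smaller than the fitted fold. Both fits were tested on simulated data.

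Named per band were the 3 highest called copies, the 2 highest and 2 lowest sequence means and the 2 largest called orientation differences each way, all on at least 20 barcodes and with 1 sign in every replicate where a call was needed, plus the longest active run and the elements at the limits. Single-barcode copies, the stretches and the windows of 10 numbers were picked from their values. The members and lists were chosen with earlier results of these data known. Alternatives were other scalings, DESeq2 1.42.0, limma 3.58.1, other filters, pseudocounts, a replicate block and libraries left out. DNA and RNA of the same number deviated together at r of 0.0345 to 0.0516 and were not treated as pairs in the main fits. The replicate values did take them by number.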

Additional observations from a re-analysis of the deposited data

Results flagged for a closer look

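Among the members below the DNA filter, 13 copies had no count in any DNA library, and 11 of these had RNA counts. In 7 of them the pooled RNA count was above 8.76, the number that a floor of 3 DNA counts comes to at the depth of the RNA libraries. The highest such copy had 54 RNA counts. They stood out because RNA appeared where the DNA of the same copy was at 0; 9 of the 13 carried 1 barcode. Those with RNA counts entered the refit without a DNA filter and no other comparison, and no source of the counts was tested.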

How the results depend on the processing

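Under DESeq2, RLE factors, other filters, the replicate block or a replicate left out, the range held 5548 to 5850 copies at 2-fold (main 5812), and limma on log2 values with 1 CPM added gave 5000. Library totals alone gave 3590 (1449, 859 and 1282 by band), 2721 copies called lower and 1224 sequences at 2-fold both ways; the centre at the mode gave 246 called lower. At 4-fold, 125 copies passed with library totals alone, 249 with limma and 2322 at the mode, against 563. With a pseudocount of 0.1 CPM the share at 1 or above was 55.5%, 37.7% and 54.4% by band. Leaving out a replicate or DNA replicate 3 gave 757 to 1033 forward calls and 439 to 656 reverse calls, with fewer libraries fitted. Measured against the median difference of the series, forward calls were 565, reverse calls 1201 and the median -0.10, by construction; limma gave a median of 0.05. With the replicate block the range had 5810 copies at 2-fold, 8331 higher, 1134 lower, 1145 forward and 694 reverse calls; each library correlated best with its own number, as a hint only. Of 456 refits of 26 named copies and 12 named orientation differences, 449 kept direction and call. The mode ended the calls of Seq_10624_rev (-0.16), Seq_7844_fwd (-0.40) and Seq_9998_fwd (-0.26), and the last also lost its call without DNA replicate 3 and without each replicate (adjusted p 0.0634 to 0.0993). The cause of these changes was not tested.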
